A study of Drosophila melanogaster and Drosophila persimilis and Drosophila pseudoobscura with 5 samples.

Results

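The genes described here are those that the authors' cross-species table places at nearly the same moderate level in Johnston's organ of all 5 Drosophila species sequenced. They were selected on the deposited signal values themselves: at least 20 and below 500 in every library, with the highest library no more than 1.75 times the lowest, and without symbols of ribosomal proteins. This left 111 genes of the 8180 in the table. Evenness and level are therefore properties of the selection, given below as a description and with no test. Johnston's organ, which senses sound, gravity and wind in the second antennal segment, was taken from adults of D. persimilis and D. pseudoobscura, which belong to the obscura group, and of D. yakuba, D. simulans and D. melanogaster, which belong to the melanogaster group, all raised at 25 degrees Celsius, and sequenced as RNA with 1 library per species. The labels name no mutation, transgene or treatment in any of the 5 species, and do not give sex or the number of flies. Without replicates within a species, no p-value was computed, and every level refers to these libraries. Where 5 signals follow a gene, they are in the order D. persimilis, D. pseudoobscura, D. yakuba, D. simulans and D. melanogaster.

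An organ needs a common set of gene products whatever its special task: machinery that makes, folds and destroys proteins, moves membranes between compartments, keeps mitochondria in shape and processes RNA. Genes of this kind are often called housekeeping genes, and a few of them serve as the constant references against which other transcripts are measured by quantitative PCR. In Johnston's organ the special task belongs to the mechanosensory channels, ciliary motors and matrix proteins of chordotonal neurons and their support cells.

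The libraries differed in ways that touch any statement on evenness. They held 7580214 to 22391819 counted reads, the fewest in D. simulans and the most in D. melanogaster. Summed signal of 5 photoreceptor markers was 6780 in D. simulans and 15.8 to 277 in the other libraries, and that of 2 muscle markers ran between 934 in D. melanogaster and 17369 in D. persimilis. For 4 markers of the olfactory segment it ran between 14570 in D. simulans and 73220 in D. pseudoobscura. For 3 fat body markers it ran between 1026 in D. persimilis and 19751 in D. simulans. D. simulans also had the highest sums for 3 haemocyte markers (1023, against 127 to 399) and 4 ovary markers (1051, against 14.3 to 152). Single markers did not all follow these sums. The ovary sum in D. simulans was mostly Cp15 (917), while grk was highest in D. persimilis (66.9, against 12.7 in D. simulans). Of the fat body markers, Lsp2 was highest in D. melanogaster (453, against 10.2 in D. simulans). Orco of the olfactory segment was highest in D. yakuba (622, against 345 in D. pseudoobscura). Defining markers of chordotonal neurons were low in every library, with a summed signal of 7.55 to 34.2 over the 4 in the table. None of the 31 markers in the table for 9 tissues was among the 111 genes. With 111 even genes in a table of 8180, this says little about the markers. Whether such tissue content has a part in the levels below was not tested. RNA came from organs and not from single cells, so fewer cells of a type and less RNA per cell cannot be told apart. The authors' signal has the same upper quartile in all libraries. For D. melanogaster it tracks reads per gene length, and this could not be checked for the other species. When the libraries were instead set to equal totals, which moves all genes of a library together by between -0.41 (D. simulans) and 0.50 (D. melanogaster) on the log2 scale, 89 genes met the limits and 24 of them were among the 111. "Even" below means even relative to the upper quartile of each library.

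Of the 1139 genes outside ribosomal proteins at signals of 20 to below 500 in all libraries, the 111 even genes were 9.75%. Within this level window, the median highest-to-lowest ratio was 1.56 in the even genes and 3.13 in the other 1028. Only 2 genes stayed within 1.25-fold, 35 more lay between 1.25-fold and 1.5-fold, and 74 between 1.5-fold and the limit. A further 99 genes of the window fell between the limit and 2-fold, so the limit cuts through a continuous distribution. The genes nearest to it inside were Atg12 (1.74), Aac11 (1.74) and CG3077 (1.74), and those nearest outside were Cbp20, Jheh1 and Cyp4d2, at a ratio of 1.76 each. At the far end, 25 genes of the window differed by more than 10-fold between libraries. Of the ribosomal genes that the selection left out, 41 lay in the same range of levels and 2, mRpS17 and mRpS10, within the ratio limit.

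**Figure D1:**
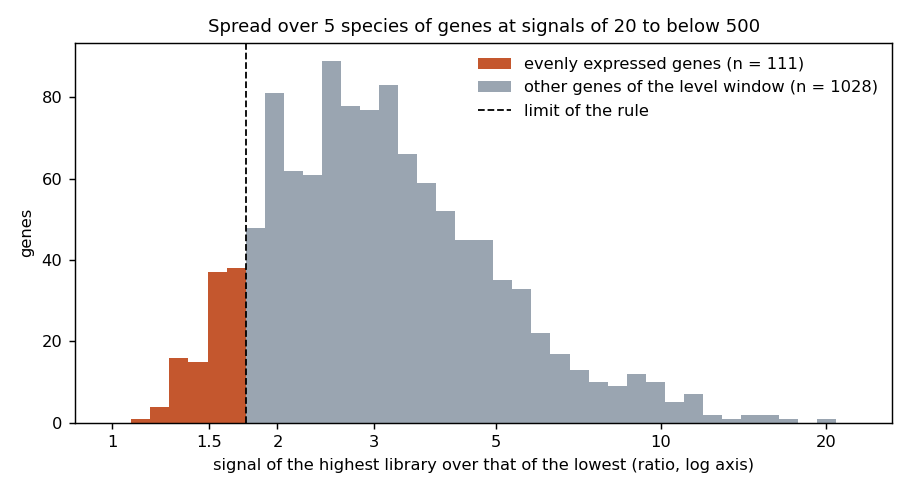
Number of genes (vertical axis) by the ratio of the highest to the lowest of the 5 library signals (horizontal log axis), for the 1139 genes at signals of 20 to below 500 in all libraries. The 111 even genes in orange lie left of the dashed limit by construction, and the 1028 others in grey have their median at 3.13.

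The most even gene was CD98hc (3R:7974409-7978428, minus strand; coordinates are from the BDGP6 annotation of D. melanogaster), which encodes the heavy chain of amino-acid exchange transporters. Its signals were 118, 119, 126, 119 and 111, a ratio of 1.14, lowest in D. melanogaster and highest in D. yakuba. The D. melanogaster value rested on 4524 reads (95% exact Poisson interval 4393 to 4658, counting error only). Clc (3L:20241053-20243735, plus strand), the clathrin light chain of coated vesicles, followed with 187, 212, 194, 207 and 225, highest in D. melanogaster and lowest in D. persimilis. CkIalpha (X:12653626-12657834, plus strand), the casein kinase that primes substrates in Wnt and Hedgehog signalling, had 136, 172, 171, 139.8 and 153. The other libraries of CkIalpha lay between D. persimilis at the bottom and D. pseudoobscura at the top.

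The next 9 genes in order of evenness were less abundant. CG5515 had 68.5, 64.02, 54.05, 64.99 and 63.8, CG11857 had 62.9, 53.4, 62.9, 49.6 and 61.96 and CG5021 had 46.5, 59.4, 52.2, 53.1 and 57.6. CG10139 had 39.3, 37.8, 42.6, 46.8 and 36.5. These 4 genes carry only systematic symbols, and their ratios were 1.27 to 1.28. Marf (X:6365949-6370924, plus strand), the mitofusin that joins outer mitochondrial membranes, had 62.4, 61.3, 79.6, 71.3 and 78.01, with both obscura group libraries at the bottom. CG8408 (X:17623221-17627895, minus strand), also called stas and related to the vertebrate ER protein TMEM41B, had 64.5, 61.9, 54.2, 49.5 and 51.9, with both obscura group libraries at the top. Catsup (2L:19041862-19043614, plus strand), a zinc transporter of the ER and Golgi, had 60.5, 59.03, 71.1, 69.8 and 77.2. CG11555 had the lowest mean of all 111 genes, with 28.3, 26.4, 23.6, 21.6 and 22.4, and CG7772 had 117, 88.2, 90.2, 108 and 115. The 12 most even genes thus included a vesicle coat subunit, a kinase, a mitochondrial fusion factor, an amino-acid transporter and a pair of ER membrane proteins. No function was assigned here to the other 6, which does not mean that none is known.

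Genes of endocytosis and endosomes were the most numerous class once functions were assigned, with 15 of the 79 genes that received one. Functions were assigned after the members were known, so the class sizes are descriptive. Beyond Clc the class held Rab14, Gdi, hk, vsg, asrij, the ESCRT subunits Chmp1, lsn, CG6259 and Vps36, the sorting nexins Snx16 and CG3077, the vacuolar ATPase subunits VhaAC39-1 and Vha36-1, and Atg12. Of these, hk (hook) links endosomes to microtubule motors, vsg and asrij are membrane proteins of endosomes, and Atg12 takes part in building autophagosomes. Without Atg12 and the vacuolar ATPase subunits the endosome class would not be the largest, since signalling and cytoskeleton held 14. Rab14, a small GTPase of early endosomes and the Golgi, had signals of 133, 154, 113, 119 and 129, a ratio of 1.36. Gdi, which extracts Rab GTPases from membranes, stayed even under every other scaling tried. On a list of 90 genes for endosomes, ESCRT, retromer and Rab proteins, 68 were in the table, 34 in the level window and 9 of these even (26.5%), beside 9.75% over the window. The median ratio of the 34 was 2.61, beside 2.93 over the window, so most of this list was not even.

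The ESCRT machinery, which sorts ubiquitinated receptors into vesicles inside the endosome and cuts membrane necks, held even and uneven genes side by side. Of its 11 genes in the table, 10 were in the level window and 4 of these even, beside 9.75% over the window. This complex was picked after the even genes were known. Chmp1, an ESCRT-III component, had 366, 283, 336, 289 and 252, and lsn, an ESCRT-II subunit, had 46.4, 39.9, 59.6, 59.4 and 46.5. Vps36, another ESCRT-II subunit, had 31.5, 33.6, 29.8, 50.8 and 36.8, and CG6259, the fly Vps60, had 235, 236, 216, 355 and 311. Chmp1 was highest in D. persimilis, lsn in D. yakuba, and Vps36 and CG6259 in D. simulans. Vps36 and CG6259 were also both lowest in D. yakuba. The other 7 ESCRT genes in the table had ratios of 2.54 to 4.19. Among these was Vps25, the remaining core subunit of ESCRT-II, with a ratio of 2.99 and signals of 71.2, 52.6, 63.6, 109 and 157. Its signal in D. melanogaster lay above that in every other library, while its ESCRT-II partners lsn and Vps36 were highest in D. yakuba and D. simulans.

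The vacuolar ATPase, the proton pump that acidifies endosomes and lysosomes, had the lowest median ratio of the 4 complexes examined subunit by subunit, 1.92 over 13 genes in the table. VhaAC39-1 (X:3880748-3882967, plus strand), the subunit d of the membrane sector, had 230.3, 299, 299, 225 and 303, and Vha36-1, a subunit of the central stalk, had 314, 241, 223, 345 and 382. VhaAC39-1 was lower in D. simulans and D. persimilis than in the other 3, and Vha36-1 was lowest in D. yakuba. Vha14-1 (ratio 1.63) and Vha16-1 (ratio 1.65) were also within the limit but were left out because they exceeded a signal of 500. Vha13 and Vha26 lay past the limit, at 1.80 and 1.82. At the other end, Vha100-2 reached a ratio of 4.67, VhaAC45 of 3.67 and Vha68-1 of 3.43.

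**Figure D2:**
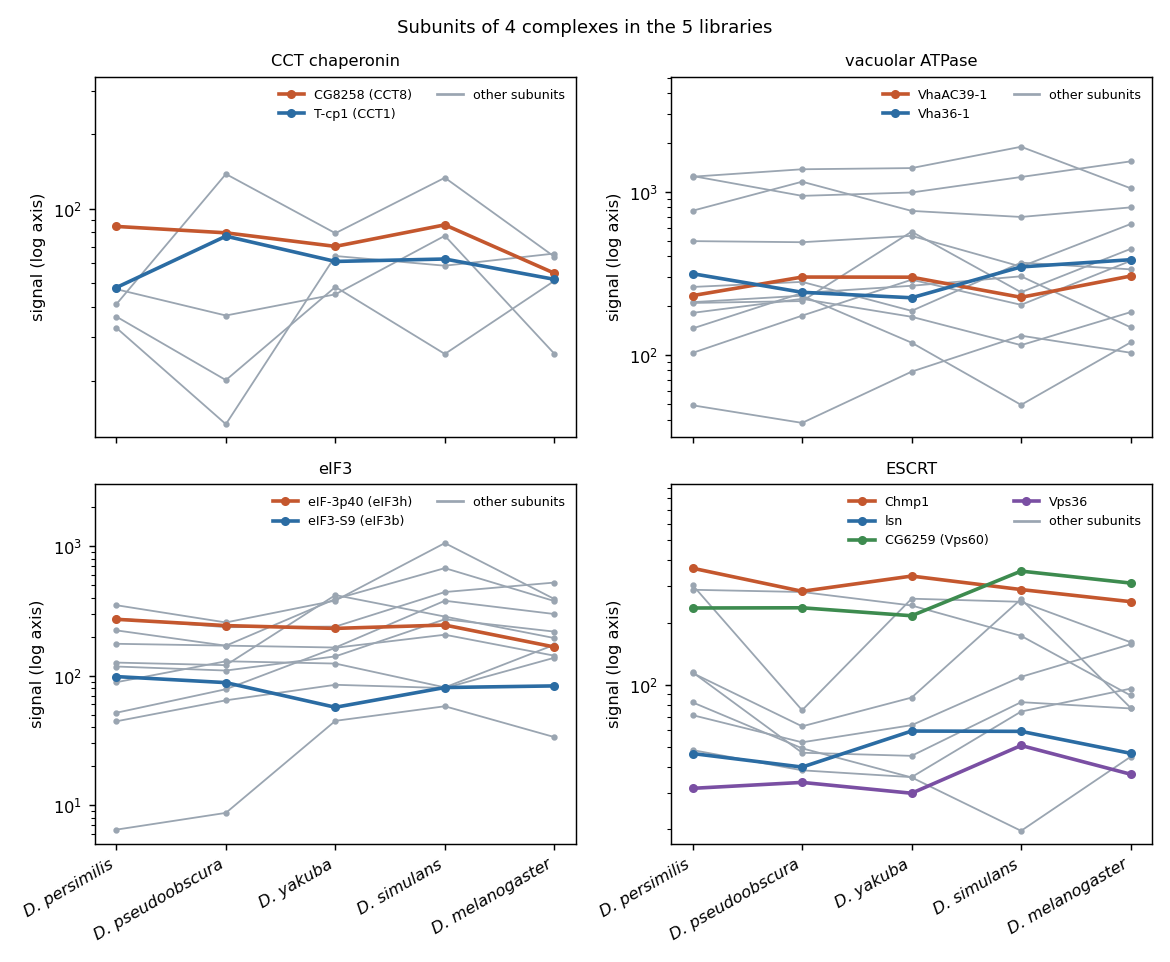
Signal (vertical log axis) of the genes of 4 protein complexes in the 5 libraries (horizontal axis), with even genes as thick coloured lines and the other genes of the same complex in the table in grey. In each complex the even subunits stay within the 1.75-fold limit beside others that differ by up to 4.93-fold (CCT), 4.67-fold (vacuolar ATPase), 8.97-fold (eIF3) and 4.19-fold (ESCRT).

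Protein synthesis, folding and turnover supplied 13 of the even genes. The cap-binding protein eIF-4E (3L:9399618-9402460, minus strand; current symbol eIF4E1), which recruits ribosomes to capped mRNAs, had 352, 265, 279.7, 245 and 292. Of the scaffold factor eIF3, eIF-3p40 (eIF3h) had 272, 243, 231, 246 and 166 and eIF3-S9 (eIF3b) had 98.2, 88.2, 56.9, 80.9 and 83.2, with both highest in D. persimilis. The other 10 eIF3 genes in the table had ratios of 2.13 for CG5642 (eIF3l) to 8.97 for eIF3-S10 (eIF3a). The translation initiation list had 3 of its 13 window genes even (23.1%) and the elongation and release list 0 of 2, beside 9.75% over the window. Ef1alpha100E, an isoform of the elongation factor that brings tRNAs to the ribosome, was also even, with a ratio of 1.61, while its ubiquitous paralogue Ef1alpha48D lay above the level window.

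The chaperonin CCT, a barrel that folds actin and tubulin, is built from equal numbers of each of its subunits. Of its 6 genes in the table, 5 were in the level window and 2 of these even, beside 9.75% over the window. CG8258 (CCT8) had 84.7, 79.7, 70.2, 85.9 and 54.7 and T-cp1 (CCT1) had 47.8, 77.3, 61.03, 62.4 and 51.6. The other 4 CCT genes in the table had ratios of 2.53 (CG7033, CCT2) to 4.93 (Tcp-1eta, CCT7). In the proteasome, the main protease of the cell, Pros26 (a subunit of the catalytic core, current symbol Prosbeta6) had 264, 274, 177, 245 and 193 and was the only even gene of 20 proteasome genes in the level window, where 9.75% of all genes were even. The median ratio of those 20 genes, 2.35, was below that of the window, 2.93. CG2046, the fly counterpart of the proteasome assembly chaperone PSMG1, and Rad23, which carries ubiquitinated proteins to the proteasome, were even as well. So were slmb, the F-box protein that selects substrates of an SCF ubiquitin ligase (26.6, 28.7, 20.4, 31.3 and 27.99), CSN6, a subunit of the COP9 signalosome that resets such ligases (74.4, 46.8, 43.1, 55.8 and 44.1), the deubiquitinase CYLD and the thioredoxin-like protein Txl.

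Mitochondrial genes among the even set act in membrane fusion and fission, protein import, proteolysis, fuel entry and complex I assembly. A list for mitochondrial import and inner-membrane upkeep had 24 genes in the table and 10 in the level window. Of these 10, 4 were even, beside 9.75% over the window. The 4 include Marf, which acts at the outer membrane. Besides Marf these were Hsc70-5, the matrix chaperone that pulls in proteins (76.7, 102, 66.1, 85.5 and 97.02), CG3499, the inner-membrane protease YME1L (23.7, 24.4, 21.2, 33.3 and 24.2), and CG5045, the matrix protease ClpP (95.96, 70.6, 104.3, 68.4 and 109.8). CG14290 (3R:18926996-18928659, minus strand; Mpc1), a subunit of the carrier that brings pyruvate into mitochondria, was among the 5 highest even genes with 359, 304, 369, 381 and 246. D. melanogaster was lowest for CG14290 and the other 4 libraries lay between 304 and 381. Thiolase (Mtpbeta) and CG12262 (Mcad) of fatty-acid oxidation, CG15738 (sicily) of complex I assembly, CG16935, a mitochondrial enoyl reductase, and Tango11, related to the vertebrate fission factor Mff, completed the class. Of the 45 respiratory chain and ATP synthase genes in the table, 1 fell in the level window and it was not even (ratio 1.97).

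Genes of the ER and Golgi numbered 10. CG11137 (EMC4), a subunit of the complex that inserts proteins into the ER membrane, had 269, 176, 176, 269 and 287, with D. yakuba and D. pseudoobscura below the other 3 libraries. Trp1 is the fly Sec62 of the ER translocon, Surf4 a cargo receptor leaving the ER, and CG12404 (Yip1d1) a membrane protein of ER-to-Golgi traffic. CG4406 (PIG-K) attaches GPI anchors, Gap69C (ArfGAP1) switches off Arf GTPases, CG1444 (spidey) is a lipid and steroid reductase, and CG13887 is a relative of vertebrate BAP31. CG8408 and Catsup completed this class. Of the 21 genes of the COPI, COPII and Golgi list in the level window 0 were even, beside 9.75% over the window. Their median ratio of 2.86 was close to the 2.93 of the window, and the lowest ratio among them was 1.78. Surf4, CG12404 and Gap69C are not on that list, so its count does not cover all genes of this traffic.

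Transcription, chromatin and RNA processing supplied 9 even genes. LSm1, part of the ring that starts mRNA decapping, had 38.8, 34.6, 34.1, 42.1 and 31.0. CG11985 (Sf3b5), a small subunit of the branch-point complex of the spliceosome, had 192, 125, 118, 142 and 174, and Srp54, a splicing regulator of the SR family, had 23.5, 22.3, 21.1, 25.2 and 33.1. The RNA-binding protein TBPH, fly TDP-43, had 27.4, 43.8, 43.7, 43.8 and 29.9, with D. melanogaster and D. persimilis below the other 3 libraries. TfIIB, the general factor that positions RNA polymerase II, had 109, 83.02, 62.6, 67.2 and 67.8, highest in D. persimilis. Snr1, a core subunit of the SWI/SNF remodelling complexes, had 23.4, 25.5, 26.7, 39.4 and 30.3, and Karybeta3, an importin, had 71.4, 83.4, 75.97, 103 and 96.9. Df31, a histone-binding protein, and NC2beta, a repressor and activator of core promoters, were the others. By list, 3 of 11 window genes on the spliceosome list were even, beside 9.75% over the window. These 3 include LSm1 of the decapping ring, which is not a spliceosome subunit. The count was 1 of 10 for RNA polymerase II and its general factors, and 1 of 6 for nuclear pore and transport.

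Signalling and cytoskeletal genes made up 14. Besides CkIalpha, the casein kinase 1 relative gish, the phosphatase CG7115 and the kinase anchor Akap200 were even. The transcriptional coactivator of the Hippo pathway yki had 44.1, 41.3, 44.8, 57.8 and 51.4, and the small GTPase Ras85D (3R:9510561-9513067, minus strand) had 45.8, 74.6, 59.5, 51.3 and 64.8. Thus 3 of the 8 window genes on the list of protein kinases and growth signalling were even (37.5%), beside 9.75% over the window. Eb1, which tracks growing microtubule ends, had 44.4, 71.1, 67.3, 65.7 and 54.2, and the septin Sep2 had 66.2, 74.7, 54.9, 87.3 and 72.2. Mlc-c, the cytoplasmic myosin light chain, the adhesion protein NijA, the prenyl-binding protein PrBP, the Ly6-type protein CG9335 (twit), the neuropeptide itp and Aac11, an apoptosis inhibitor related to vertebrate API5, were the remaining ones. On the actin assembly list 0 of 11 window genes were even and on the list of cytoplasmic dynein, dynactin and kinesin 0 of 9, beside 9.75% over the window, which is too few genes to tell from that share.

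Metabolism and transport held the last 8 genes with an assigned function. Idh, an isocitrate dehydrogenase that supplies NADPH, had 247, 268, 249.9, 391 and 325, and CG6776 (GstO3), an omega-class glutathione transferase, had 72.9, 79.3, 99.4, 78.7 and 117. CD98hc, Cerk (ceramide kinase), Acsl (a long-chain acyl-CoA synthetase), retm (a Sec14-domain lipid-transfer protein), CG5177 (a trehalose phosphatase) and Ciao1 (cytosolic iron-sulphur cluster assembly) were the others. Idh and CG6776 had their lowest signals in D. persimilis.

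The other 32 even genes have no function assigned here, and their ratios ran between 1.27 and 1.72. They include the pair with the highest mean signal of all, CG10680 (281, 319.7, 376, 469 and 360.4) and CG11686 (426, 446, 303, 291 and 273), and 2 more of those with the lowest, CG17739 (29.9, 27.96, 24.5, 22.9 and 20.2) and CG3008 (25.5, 24.8, 30.02, 22.4 and 25.2). CG10680 was highest in D. simulans, and CG11686 was higher in both obscura group libraries than in all 3 of the melanogaster group. The remainder were CG5515, CG11857, CG5021, CG10139, CG11555, CG7772, CG6707, CG5989, l(2)k09913, CG4546, CG9919, CG10874, CG3226, CG10311, CG17271, CG42542, CG11103 (amrt), CG8435, CG14591, s-cup, CG4502, CG5554, CG3040, CG3223, CG1468, CG9631, CG7407 and CG14270. Of all 111 genes, 33 still carry a systematic CG symbol in the BDGP6 annotation (29.7%), beside 32.1% of the other window genes.

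**Figure D3:**
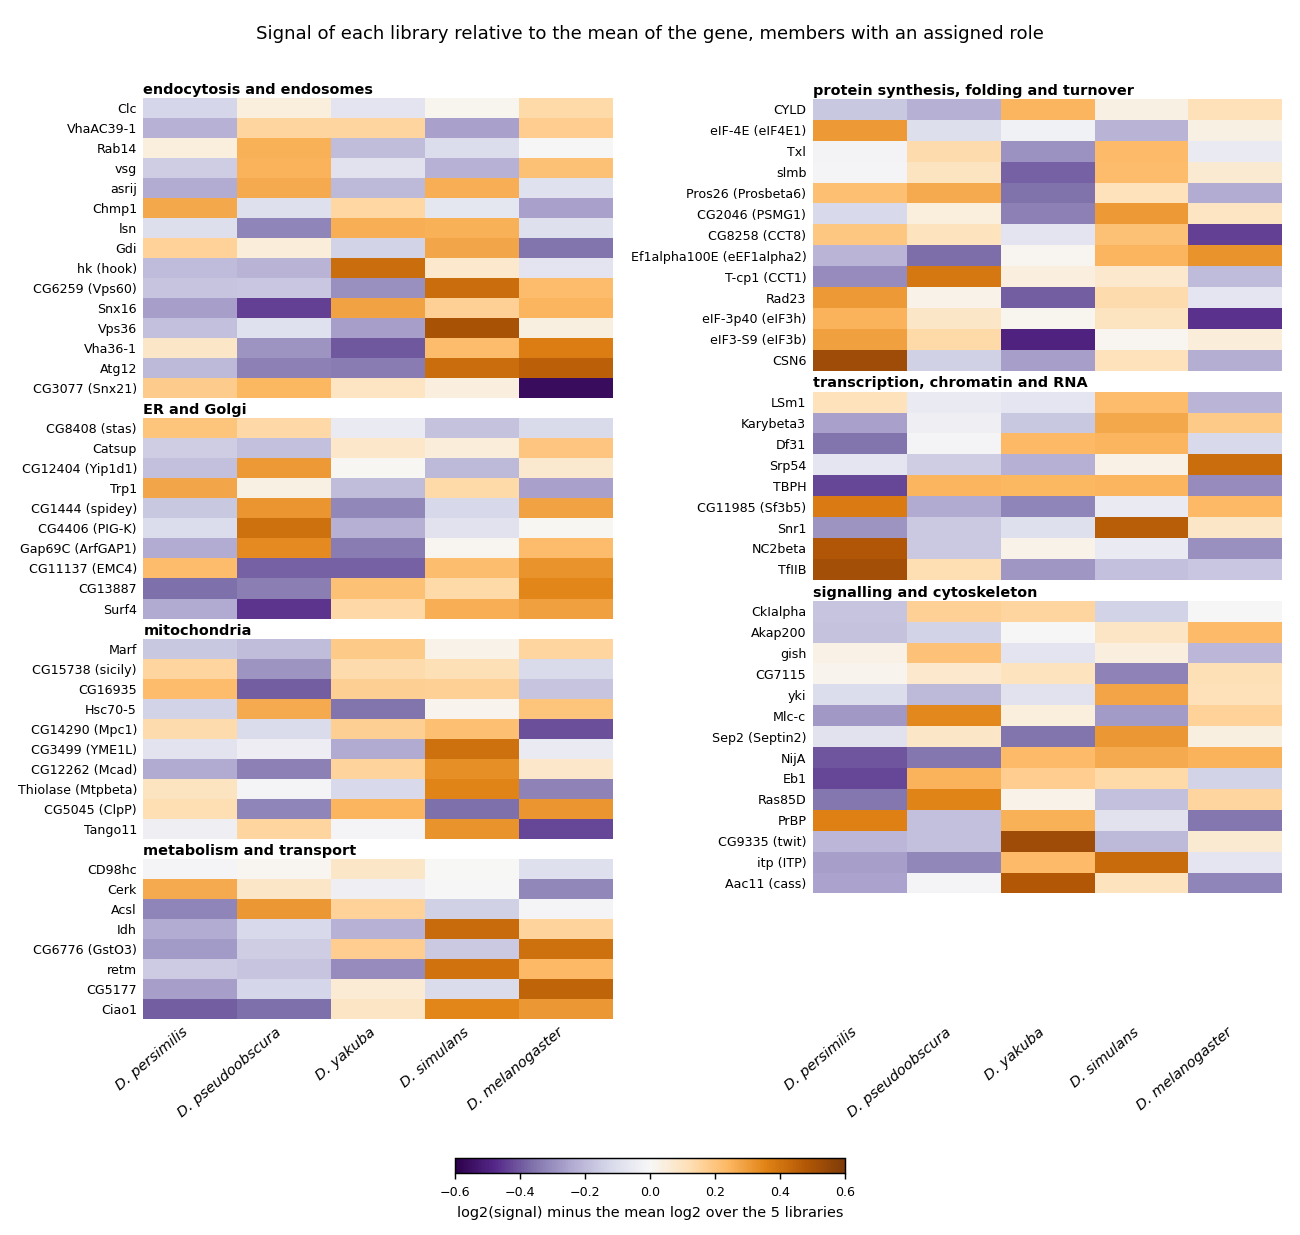
Heat map of the 79 even genes with an assigned function (rows, grouped by function and ordered by evenness within each group) in the 5 libraries (columns). Colour is log2(signal) minus the mean log2 of the gene over the libraries, orange above and purple below. Pale rows such as CD98hc stand at the top of a group and stronger colours such as CG3077 at the bottom.

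Read against lists of general cell functions, the even genes were 38 of the 266 window genes on 34 such lists (14.3%). On 14 lists tied to sensory, neuronal, immune, muscle and other tissue functions they were 3 of 18 (16.7%), and among the 856 window genes on no list 71 (8.29%), beside 9.75% over the window. Of the genes of the tissue lists in the table, 9.09% lay in the window, beside 34.4% for the general lists. The share was 12.04% for genes on no list and 14.1% over all 8079 genes outside ribosomal proteins. No gene of the lists for mechanosensory channels, axonemal dynein, ciliogenesis, chordotonal support, photoreceptors or cuticle was in the window, so none could be even. Each of these lists had only 8 to 24 genes in the table. The 3 even genes from tissue lists were Thiolase, CG6776 and slmb, which act in fatty-acid oxidation, glutathione conjugation and protein degradation and stand on the lists for fat body, detoxification and the circadian clock. Of the 34 general lists, 19 held at least 1 even gene.

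**Figure D4:**
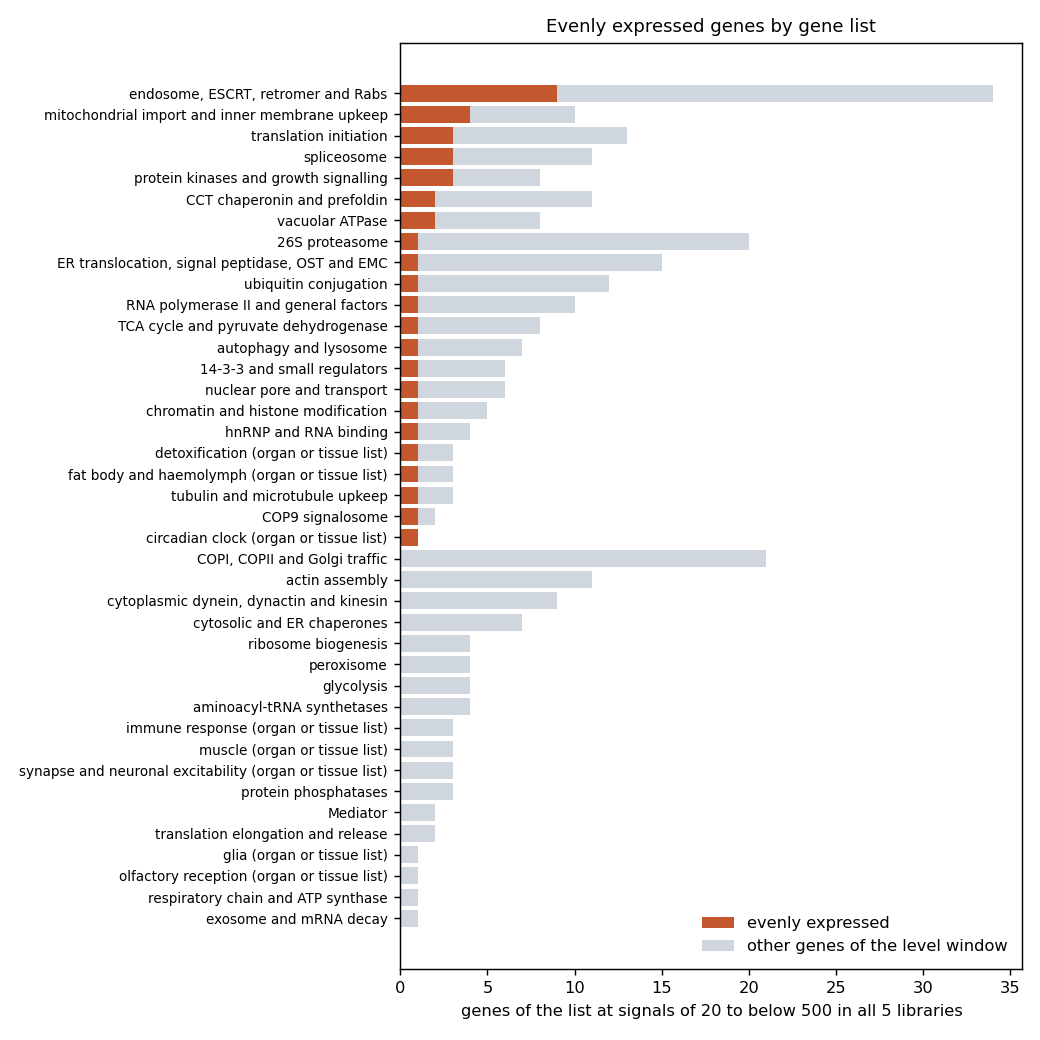
Genes of each list at signals of 20 to below 500 in all 5 libraries (bar length, horizontal axis), divided into even genes in orange and the others in grey; lists with no gene in that range are not drawn. The list for endosomes, ESCRT, retromer and Rab proteins leads with 9 even of 34, while the list for COPI, COPII and Golgi traffic has 0 of 21.

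Of the 12 quantitative PCR reference genes in the table, 3 (Act42A, SdhA and R) were in the level window and 0 of these even, beside 9.75% over the window, so the count says little about reference genes as a group. The cytoplasmic tubulin betaTub56D was within the ratio limit (1.43) but above the level window, with 989 to 1414. Ef1alpha48D, the main elongation factor, ranged 2.05-fold, the GTPase gene R (Rap1) 2.42-fold, the cytoplasmic actin Act42A 2.64-fold, the glycolytic enzyme gene Pgk 2.98-fold, SdhA of the respiratory chain 3.16-fold and eIF-1A 3.59-fold. The polymerase subunits RpII140 and RpII215 had ratios of 4.90 and 25.4 at low signals, 4.12 to 20.2 and 0.43 to 11.0. A lowest signal near 0, as for RpII215 in D. simulans, makes such a ratio large. The ribosomal gene RpS20 had a ratio of 21.5. Tbp and 14-3-3zeta were each listed at 0 in a library, D. persimilis for Tbp and D. simulans for 14-3-3zeta. For comparison, 51 even genes named by the same rule had ratios of 1.14 to 1.74, as the selection requires.

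Above the level window, 20 of the 352 genes that reached 500 in some library were within the same ratio limit (5.68%), beside 9.75% of the window. The helicase of translation initiation eIF-4a (current symbol eIF4A) had 1724, 1964, 2112, 1674 and 1469.6, and Atg8a, which coats autophagosomes, had 2093, 1739, 2026, 2228 and 1320.2. Also among them were the prolyl isomerase FK506-bp2, 14-3-3epsilon, the glycolytic enzyme PyK and the elongation factor subunit Ef1gamma. These genes were named after their values were seen.

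Within the limit the even genes still varied, and no library stood consistently above or below. The median deviation of a library from the mean of each gene was -0.03 in D. persimilis and 0.02 in D. pseudoobscura on the log2 scale, and -0.02, 0.05 and 0.01 in D. yakuba, D. simulans and D. melanogaster. These signs changed with the scaling in every library other than D. pseudoobscura. D. simulans was the highest library for 27 genes and the lowest for 18, D. persimilis highest for 26 and lowest for 23, D. pseudoobscura highest for 25 and lowest for 16. D. melanogaster was highest for 19 and lowest for 27, and D. yakuba highest for 14 and lowest for 27. Added up, the 111 genes had a total signal of 10916 to 11692 per library, while the total of all genes in the table ran between 630196 in D. melanogaster and 1179373 in D. simulans. Their share of the total signal was therefore 1.77% in D. melanogaster and 0.972% in D. persimilis.

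**Figure D5:**
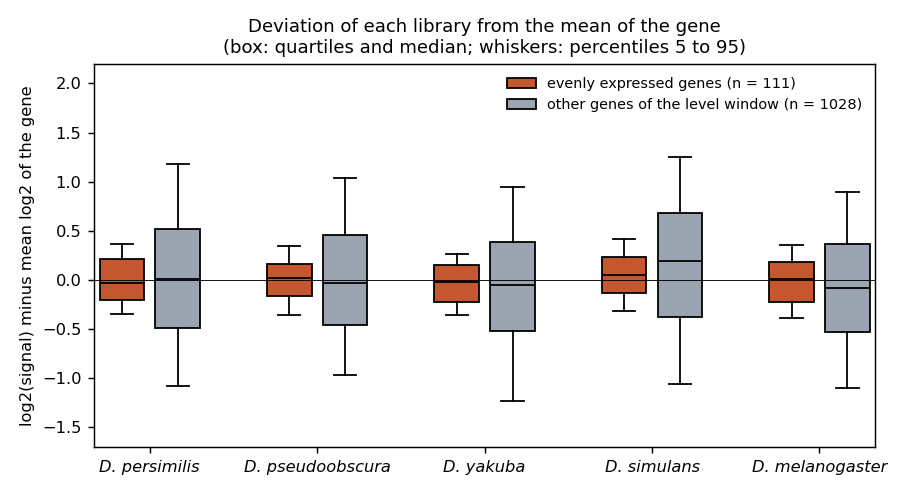
Deviation of each library from the mean of each gene (vertical axis, log2 units) for the 111 even genes in orange and the 1028 other window genes in grey. Medians of the even genes lie between -0.03 and 0.05 in all 5 libraries, and the narrow boxes follow from the selection.

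Pairs of libraries were nearest within the obscura group. The median fold between D. persimilis and D. pseudoobscura was 1.13 over the even genes and 1.43 over the other window genes. Between D. persimilis and D. melanogaster the median fold was 1.28 over the even genes, the widest of the 10 pairs. Both obscura group libraries lay above all 3 of the melanogaster group for 18 even genes (16.2%), beside 18.7% of the window. They lay below all 3 for 19 (17.1%), beside 19.1% of the window.

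The 5 genes with the largest obscura difference downward were named after their values were seen. Ciao1 had 42.2 (D. persimilis) and 43.1 (D. pseudoobscura), against 58.97, 70.6 and 68.9 in the melanogaster group, and NijA had 33.8 (D. persimilis) and 35.1 (D. pseudoobscura), against 52.5, 53.8 and 53.1 in the melanogaster group. Snx16 had 22.6 (D. persimilis) and 20.1 (D. pseudoobscura), against 33.3, 30.6 and 32.3 in the melanogaster group. CG13887 had 170.0 (D. persimilis) and 173 (D. pseudoobscura), against 253, 240.5 and 279 in the melanogaster group. Surf4 had 81.7 (D. persimilis) and 70.2 (D. pseudoobscura), against 106, 115 and 118 in the melanogaster group. The differences of mean log2 signal, obscura group minus melanogaster group, were -0.58 to -0.63 for these 5 genes. In the other direction they were 0.59 for CG11686 and 0.53 for TfIIB.

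The even genes were also compared with each other in the order and size of their small differences. By the distance of log2 signals centred per gene over the 5 libraries, retm and CG6259 were nearest (0.03), followed by CG8408 and CG11555 (0.03) and by CG2046 and Sep2 (0.08). The median distance over the 6105 pairs was 0.70, and the ratio limit of the selection bounds all of these distances. retm had 46.2, 45.5, 41.5, 67.8 and 60.6 and CG6259 had the signals given above, with D. simulans highest and D. yakuba lowest in both.

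The selection did not use gene structure. The median exon length of the even genes was 1604 bases, beside 1490 bases in the other window genes and 1883 in the table, and the median protein length was 321 residues, beside 278 and 422. Of the 274 window genes with under 1000 exon bases 5.84% were even, beside 11.4% of the 289 with 1000 to below 1500. The share was 11.4% of the 360 with 1500 to below 2500 and 9.95% of the 211 with 2500 or more. Library deviations also differed with length. From the shortest to the longest group, the median log2 deviation went from 0.41 to -0.31 in D. persimilis and from 0.25 to -0.06 in D. simulans. Whether length has a part in evenness was not tested. All 111 were protein coding. They were spread over the chromosome arms as 15 on X, 26 on 2L, 24 on 2R, 20 on 3L, 25 on 3R and 1 (Rad23) on 4. Gene bodies of 48 overlapped another gene (43.2%), beside 54.9% of the other window genes, and no source used here states whether strand was used in counting, so reads of overlapping genes cannot be told apart. Only 3 pairs of even genes lay within 10000 bases of each other, among them hk and Catsup, 8363 bases apart on 2L.

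Evenness and level were linked by the construction of the window, since a gene near 20 cannot fall far. Of the 98 window genes with a mean of 20 to below 40, 29.6% were even, beside 8.76% at 40 to below 80, 5.58% at 80 to below 160 and 10.3% at 160 to below 500. Mean signals of the even genes ran between 24.5 and 361 with a median of 63.9. A subset of 29 had signals of at least 100 in every library, of 155 such genes in the window. In D. melanogaster, where counts carry the same gene identifiers, 107 of the 111 genes had a matched count. These counts ran between 290 and 13180 with a median of 1676, and the 95% exact Poisson interval at the lowest count spans 11.7% to either side on average, counting error only. Counting error in that library is thus smaller than the 1.75-fold allowed between libraries. D. melanogaster had the most reads and the lowest total signal of all libraries. A given signal therefore rests on fewer reads on average in the other species, whose counting error was not computed. The spread between animals or preparations of 1 species was not measured.

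Left out of the rule in turn, each library changed the count, since a limit over 4 libraries is easier to meet than over 5. Without D. simulans 273 genes qualified, against 199 to 225 without any 1 of the others. Among window genes past the limit, 112 met it over the remaining 4 libraries once D. simulans was set aside, which was above all others in 69 of them and below all others in 43. Setting aside any 1 of the other libraries did this for 70 to 81 genes, and a gene can count for more than 1 library. By construction, all 111 genes still qualify when a library is left out. Under every other scaling tried, 11 of them met the limits: CD98hc, CG10139, gish, CG15738, LSm1, Trp1, CG9919, CG16935, Pros26, CG14290 and Gdi.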

How the data were processed

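RNA of Johnston's organ was measured in 5 libraries, 1 per species, grouped by the species in their titles. Per the labels, annotation releases were 1.3 (D. persimilis), 2.30 (D. pseudoobscura), 1.3 (D. yakuba), 1.4 (D. simulans) and 5.46 (D. melanogaster). The submitters' processing notes list TopHat2 2.0.3 and HTSeq. The deposited count files hold raw reads per gene, with 9236301, 12908479, 13916387, 7580214 and 22391819 reads in the same order of species. They were used for depth and for exact 95% Poisson intervals in D. melanogaster.

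The deposited signal values form the authors' cross-species table. Their making and the matching of genes between species are not described in any source used here. The upper quartile is 34.3 in every library. Division by gene length was checked in D. melanogaster only. For 82 of the 107 even genes with a count, signal times exon length over count was within 5% of its median. The remainder lay outside.

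Members were selected on the untransformed values, with no pseudocount and no test. The members and the gene lists were chosen with earlier results of these data known. Genes chosen by rule for closer description were those with the 12 lowest ratios, up to 4 per list, and the 5 highest and 5 lowest means. To these came 3 on either side of the limit, and the PCR reference genes. Subunits of 4 complexes and the genes with the largest obscura differences were added after values were seen. Symbols were matched to BDGP6, a later assembly than the authors' release (8130 of 8180, and all 111 even genes). Promoter motifs were not analysed here. Alternatives were other scalings (equal totals, edgeR 4.0.16 TMM factors, median of ratios), limits and left-out libraries. Python 3.11.15, numpy 2.4.6, pandas 2.3.3, scipy 1.17.1, matplotlib 3.10.9 and R 4.3.3 were used, and the selection was checked on simulated data.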

Additional observations from a re-analysis of the deposited data

How the results depend on the processing

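No paired analysis was possible because each species had 1 library and no test was run. The number of even genes was 105 with TMM factors (98 of them among the 111), 98 with median-of-ratios factors (83 among the 111) and 89 with equal totals (24 among the 111). With equal totals, 22 even genes were on the lists of general cell functions, and the median deviation of the 111 genes became -0.41 in D. persimilis, 0.20 in D. yakuba, -0.36 in D. simulans and 0.51 in D. melanogaster, as the rescaling itself imposes. A ratio limit of 1.5 left 37 genes (3.25% of the window, 11 on those lists), and a limit of 2 gave 210 (18.4%, 64 on the lists). A lower level of 10 changed the share of the window to 7.85% and one of 40 to 12.4%. Leaving out 1 library gave 199 to 273 genes, 16.1 to 20.4% of the window and 61 to 76 genes on the lists. Without genes overlapping another, 63 even genes were left (12.02%, 24 on the lists). The median deviations of the libraries, all near 0 as deposited, changed sign with the scaling: D. simulans (0.05 as deposited) and D. yakuba (-0.02) with equal totals as above, D. melanogaster (0.01) to -0.05 with TMM and -0.11 with median-of-ratios factors, and D. persimilis (-0.03) to 0.001 with TMM and 0.08 with median-of-ratios factors. Of the 51 even genes chosen by rule for closer description, 45 stayed within the limit with TMM factors and 40 with median-of-ratios factors. The limit held for 11 of them with equal totals and for 51 with 1 added to each signal. Genes added after values were seen, such as Vps36 and Surf4, are not among the 51. Depth was lowest in D. simulans, and counts of single genes were read only in D. melanogaster.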
